A study of Mus musculus with 22 samples.

Results

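The 10 genes that make, load and carry the ligands of MHC class I molecules were described here in 2 brain regions of Ts66Yah and wild-type (wt) mice, the entorhinal cortex (EC) and the hippocampus (HIP). The genes were chosen by symbol (H2-K1, H2-D1, H2-Q4, H2-T23, B2m, Tap1, Tap2, Tapbp, Psmb8 and Psmb9), with earlier results of these data known but by a rule that uses no measured level, and all 10 were found among the 55385 genes of the count table. RNA was sequenced from both regions of 11 male mice aged 5 to 6 months, 5 wt and 6 Ts66Yah littermates, giving 22 libraries. Ts66Yah mice carry a freely segregating minichromosome with an additional copy of distal mouse chromosome 16 (Mmu16), a model of the trisomy of Down syndrome, from which the centromeric Mmu17 segment of the parental Ts65Dn minichromosome was removed by CRISPR/Cas9. None of the 10 genes lies on the extra segment. The line goes back to a single founder male, and the mice of both genotypes were bred on the mixed B6C3B background, from C57BL/6J and a sighted C3H strain, so that littermates may carry different alleles at any locus. The question addressed was whether these genes followed the genotype, or the individual mouse in both regions.

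Class I molecules show peptides from inside the cell to CD8+ T cells and natural killer cells. The immunoproteasome, of which Psmb8 and Psmb9 are catalytic subunits, cuts proteins into peptides, Tap1 and Tap2 together form the pump that moves these peptides into the endoplasmic reticulum, and Tapbp (tapasin) holds the pump next to an empty class I molecule. The heavy chain, here H2-K1 and H2-D1 (classical) and H2-Q4 and H2-T23 (non-classical, the last encoding the Qa-1 ligand of the receptor CD94/NKG2A), pairs with the invariant light chain B2m before it leaves for the cell surface. In the brain this set is known to be low in resting cells, to be carried by microglia and endothelium and to be inducible by interferon, and class I molecules have also been described at neuronal synapses. Laboratory strains differ at the heavy chain loci in blocks called H2 haplotypes: C57BL/6 mice are of the b haplotype and C3H mice of the k haplotype.

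All but 1 of the 10 genes lie on chromosome 17 (GRCm38, GENCODE coordinates), in the order Tapbp (33915899 to 33929292), H2-K1 (33996017 to 34000347), Psmb9 (34181987 to 34187764), Tap1 (34187553 to 34197225), Psmb8 (34197721 to 34201454), Tap2 (34203527 to 34216321), H2-D1 (35262730 to 35267499), H2-Q4 (35379617 to 35385290) and H2-T23 (36029773 to 36032855). B2m lies on chromosome 2 (122147686 to 122153083). Psmb9 and Tap1 overlap head to head on opposite strands, and H2-Q4, H2-T23, B2m, Tap2, Tapbp and Psmb8 also have an annotated gene over part of them, of which Zbtb22, over Tapbp, is on the same strand. Since it is not stated whether counting used strand, reads of these partners cannot be told apart. Of the 50-base stretches of the annotated transcripts, the length of the reads, 9.63% of those of H2-K1, 12.8% of H2-D1, 14.5% of H2-T23 and 36.4% of H2-Q4 also occur in transcripts of another gene, against 0 of the 811 of B2m. The values of H2-Q4 in particular may therefore contain reads of, or have lost reads to, near-identical genes.

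The stretches of 200 bases before the start annotated in RefSeq are shown for the 4 heavy chains and B2m, because the heavy chains and B2m are known to be switched on together through shared promoter elements (RefSeq, GRCm38.p6). Letters in capitals mark matches, on either strand, to GGGGATTCC (a core bound by NF-kB), TTTCACTTC (a core of the interferon response element), the ISRE core (paired GAAA repeats with a spacer), TGACG (the core of a cAMP response element) and CCAAT. The stretches lie at chr17:34000348-34000547 (minus strand), chr17:35262894-35263093 (plus strand), chr17:35379417-35379616 (plus strand), chr17:36032702-36032901 (minus strand) and chr2:122147487-122147686 (plus strand), and are written 5′ to 3′ on the strand of the gene. The RefSeq start lies 364 bases inside the GENCODE gene for H2-D1 and 154 bases inside it for H2-T23, so that the stretch of H2-D1 lies within the gene as given above and that of H2-T23 overlaps its end.
H2-K1: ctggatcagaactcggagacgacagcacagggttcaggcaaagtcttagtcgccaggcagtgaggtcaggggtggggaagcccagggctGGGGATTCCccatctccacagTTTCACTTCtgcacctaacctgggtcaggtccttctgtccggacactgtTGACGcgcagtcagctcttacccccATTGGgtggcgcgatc
H2-D1: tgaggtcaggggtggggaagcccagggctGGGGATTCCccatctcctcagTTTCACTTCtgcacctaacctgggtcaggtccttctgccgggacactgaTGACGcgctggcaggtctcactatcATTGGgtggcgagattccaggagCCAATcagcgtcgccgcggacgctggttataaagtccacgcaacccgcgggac
H2-Q4: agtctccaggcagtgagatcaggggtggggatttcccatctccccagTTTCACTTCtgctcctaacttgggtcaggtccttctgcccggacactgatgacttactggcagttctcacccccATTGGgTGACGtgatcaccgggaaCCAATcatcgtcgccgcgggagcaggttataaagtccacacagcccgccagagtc
H2-T23: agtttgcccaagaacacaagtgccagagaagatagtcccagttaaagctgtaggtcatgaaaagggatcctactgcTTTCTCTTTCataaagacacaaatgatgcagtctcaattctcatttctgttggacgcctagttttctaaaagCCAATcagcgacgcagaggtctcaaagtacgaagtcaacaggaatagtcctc
B2m: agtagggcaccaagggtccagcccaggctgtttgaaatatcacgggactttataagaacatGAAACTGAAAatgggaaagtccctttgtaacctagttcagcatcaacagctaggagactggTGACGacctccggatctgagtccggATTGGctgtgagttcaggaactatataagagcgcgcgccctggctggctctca

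The promoters of H2-K1 and H2-D1 held GGGGATTCC, TTTCACTTC and TGACG in the same order, and their best local alignment was identical at 127 of 139 columns (91.4%). That of H2-Q4 held TTTCACTTC and TGACG but not these letters of the NF-kB core, and matched H2-D1 at 85.6% of 174 columns. H2-T23 and B2m held the ISRE core instead of TTTCACTTC. Among all 32851 promoter windows of the RefSeq table (300 bases, from 250 before to 50 after the start), 0.25% held GGGGATTCC, 0.505% TTTCACTTC, 3.44% the ISRE core, 20.8% TGACG and 37.4% CCAAT. A match is a string of letters, and binding was not measured.

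Libraries held between 25.9 M and 50.1 M counted reads (M, mega; median 34.7 M), and levels are given as CPM (counts per M reads of the library total, scaled by TMM to correct for library composition). The labels were first checked on genes of known behaviour. All 4 interferon receptor genes of the extra segment had higher mean levels in Ts66Yah mice, Ifnar1 for instance at 42.5 ± 2.56 CPM (SD, n = 5) in wt and 67.6 ± 3.14 CPM (n = 6) in Ts66Yah HIP. All 7 hippocampal markers were lower, and 6 of 7 cortical markers higher, in EC than in HIP (edgeR quasi-likelihood test). The 15 lymphocyte markers summed to at most 14.5 CPM in any library, and 3 of them were high enough to be tested.

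By length, B2m was by far the most abundant of the 10 mRNAs, with 97.0 CPM per kilobase of exon in wt HIP and 119 in wt EC. The classical heavy chains followed at 7.40 (H2-D1) and 6.60 (H2-K1) CPM per kilobase in wt HIP, with Tapbp at 5.97 and Tap2 at 2.13. H2-T23 stood at 1.58 and H2-Q4 at 1.17 CPM per kilobase, while Psmb8, Tap1 and Psmb9 were lowest, at 0.680, 0.652 and 0.520. For these 3 the levels in wt HIP were 2.30 ± 0.23 (Psmb8), 3.57 ± 0.53 (Tap1) and 1.90 ± 0.47 CPM (Psmb9; SD, n = 5) before division by length. H2-K1 and H2-D1 made up 29.7% and 32.3% of the counts of all 23 class I genes of chromosome 17.

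Genotype was tested first. None of the 10 genes differed between Ts66Yah and wt mice in HIP, in EC or in the summed counts of both regions (edgeR quasi-likelihood test, Benjamini-Hochberg adjusted over all genes tested), while 0.591% of 18452 genes passed in HIP, 0.283% of 17658 in EC and 0.573% of 20233 in the sum. None passed at an unadjusted p of 0.05 either, the smallest being 0.139 (H2-D1, summed counts), where 11.9% of all genes in HIP, 6.25% in EC and 10.3% in the sum did, and the count of 0 was the same with DESeq2 and limma voom. None of the 10 had non-overlapping genotypes in either region, which 1.94% of the genes tested in HIP and 0.9% of those tested in EC had.

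The heavy chains H2-D1 and H2-K1 had the largest mean differences. H2-D1 was counted in wt HIP at 16.7, 26.5, 21.8, 6.95 and 23.4 CPM in mice 1 to 5, and in Ts66Yah HIP at 27.8, 20.96, 20.1, 19.0, 32.7 and 30.3 CPM in mice 1 to 6. In EC the same wt mice had 18.3, 26.3, 22.8, 8.82 and 22.96 CPM and the same Ts66Yah mice 23.6, 19.4, 21.5, 20.7, 38.2 and 31.6 CPM. The genotypes overlapped: wt mouse 2 lay above 3 of the Ts66Yah mice in HIP and 4 in EC, wt mouse 4 stood far below all others in both regions, and Ts66Yah mice 5 and 6 stood above all others. The log2 fold change was 0.40 ± 0.26 (SE; 95% interval -0.15 to 0.95; adjusted p = 0.584, edgeR) in HIP and 0.37 ± 0.24 (-0.15 to 0.90; adjusted p = 0.909) in EC. Without wt mouse 4 it was 0.19 in HIP and 0.20 in EC.

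H2-K1, the other classical heavy chain, stood in wt HIP at 16.7, 21.6, 21.8, 11.2 and 25.7 CPM and in Ts66Yah HIP at 33.6, 20.8, 21.8, 16.1, 25.8 and 22.03 CPM. In EC it stood at 15.2, 15.4, 20.6, 14.3 and 28.3 CPM in wt and at 24.8, 18.4, 19.6, 19.1, 26.6 and 21.8 CPM in Ts66Yah mice. Again wt mouse 4 was the lowest of all in both regions, whereas wt mouse 5 was the highest of all in EC and Ts66Yah mouse 1 in HIP. The log2 fold change was 0.27 ± 0.20 (adjusted p = 0.644, edgeR) in HIP and 0.20 ± 0.17 (adjusted p = 0.939) in EC. It was 0.13 in both regions without wt mouse 4, and 0.39 in both without wt mouse 5.

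For the other members the fold changes were small. B2m, on which every class I heavy chain depends, had a log2 fold change of 0.06 ± 0.11 in HIP (95% interval -0.19 to 0.30) and 0.00 ± 0.12 in EC (-0.26 to 0.27). Among the loading genes, that of Tap1 was -0.12 ± 0.16 in HIP and 0.11 ± 0.25 in EC, that of Tap2 0.07 ± 0.11 and 0.11 ± 0.14, and that of Tapbp -0.03 ± 0.08 and -0.12 ± 0.11. The immunoproteasome subunits stood at 0.11 ± 0.16 and -0.01 ± 0.23 (Psmb8) and at -0.03 ± 0.21 and -0.16 ± 0.20 (Psmb9), and the non-classical heavy chains at 0.13 ± 0.24 and 0.01 ± 0.19 (H2-Q4) and at -0.12 ± 0.18 and 0.03 ± 0.21 (H2-T23), in HIP and EC. The widest of these 95% intervals, that of Tap1 in EC, ran from -0.42 to 0.64, so that changes of Tap1 inside it remained compatible with these data. The median log2 fold change of the 10 genes was 0.07 in HIP and 0.02 in EC, against 0.00 over all genes tested in either region.

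**Figure D1:**
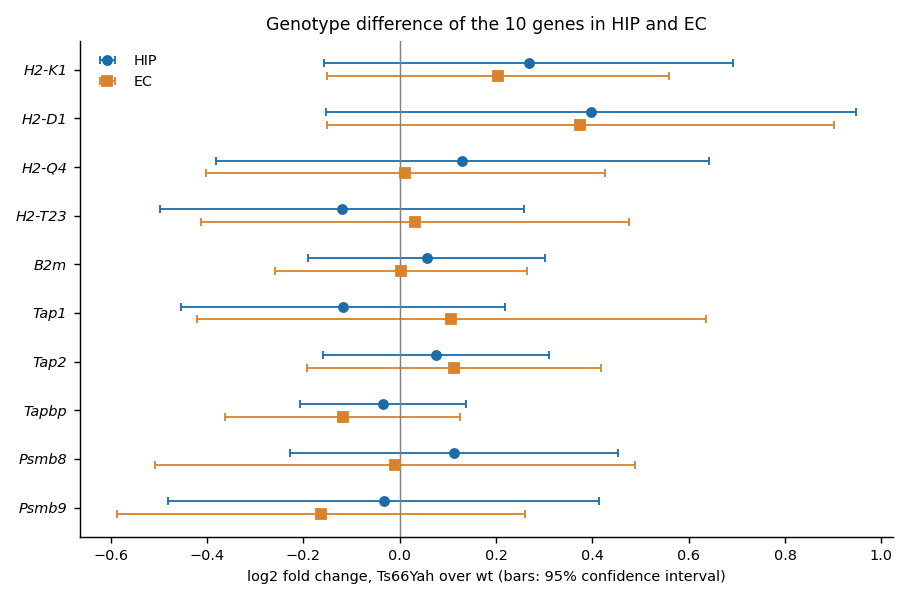
Log2 fold change of Ts66Yah over wt for each of the 10 genes (x axis, log2 units), in HIP (circles, 5 and 6 libraries) and EC (squares, 5 and 6 libraries), with the 95% confidence interval of the edgeR fit as bars. All 20 intervals include 0, and those of H2-D1 and H2-K1 lie farthest to the right.

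Adding the counts of all 23 class I genes of chromosome 17 gave a measure that does not change when a read is counted for another of these genes. Reads dropped because they map to several genes, or because they do not map, would be missing from the sum too. H2-L, H2-Q9 and H2-T9 were not found by symbol and are not part of it. The sum ranged from 35.9 (wt mouse 4) to 76.8 CPM in wt HIP and from 58.7 to 91.3 CPM in Ts66Yah HIP, and from 43.8 (wt mouse 4) to 80.8 and from 62.1 to 103 CPM in EC. Its log2 fold change was 0.27 ± 0.17 (adjusted p = 0.579, edgeR) in HIP and 0.23 ± 0.15 (adjusted p = 0.910) in EC. Without wt mouse 4 it was 0.12 in HIP and 0.11 in EC, and without Ts66Yah mouse 5 it was 0.13 in EC, both chosen as alternatives once these data were known.

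The mice of a genotype were compared next, with the question whether a mouse that departed from its group in HIP departed in EC too. Since both regions of a mouse were sequenced, the 9 terms for the mouse within genotype could be tested against the spread left within a mouse (edgeR quasi-likelihood F test over 22 libraries, with a mean for each of the 4 groups of genotype and region). This test does not use the difference between genotypes. H2-D1 (F = 37.1, adjusted p = 3.1e-06), B2m (F = 12.6, adjusted p = 0.00130) and H2-K1 (F = 8.14, adjusted p = 0.00827) passed, 3 of the 10 genes, against 6.83% of the 19074 genes tested. The other 7 did not, with adjusted p-values of 0.066 (H2-T23), 0.086 (H2-Q4) and between 0.209 and 0.236 for the 3 loading genes and both immunoproteasome subunits. H2-D1 ranked 76th of 19074 by p, B2m 248th and H2-K1 546th.

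**Figure D2:**
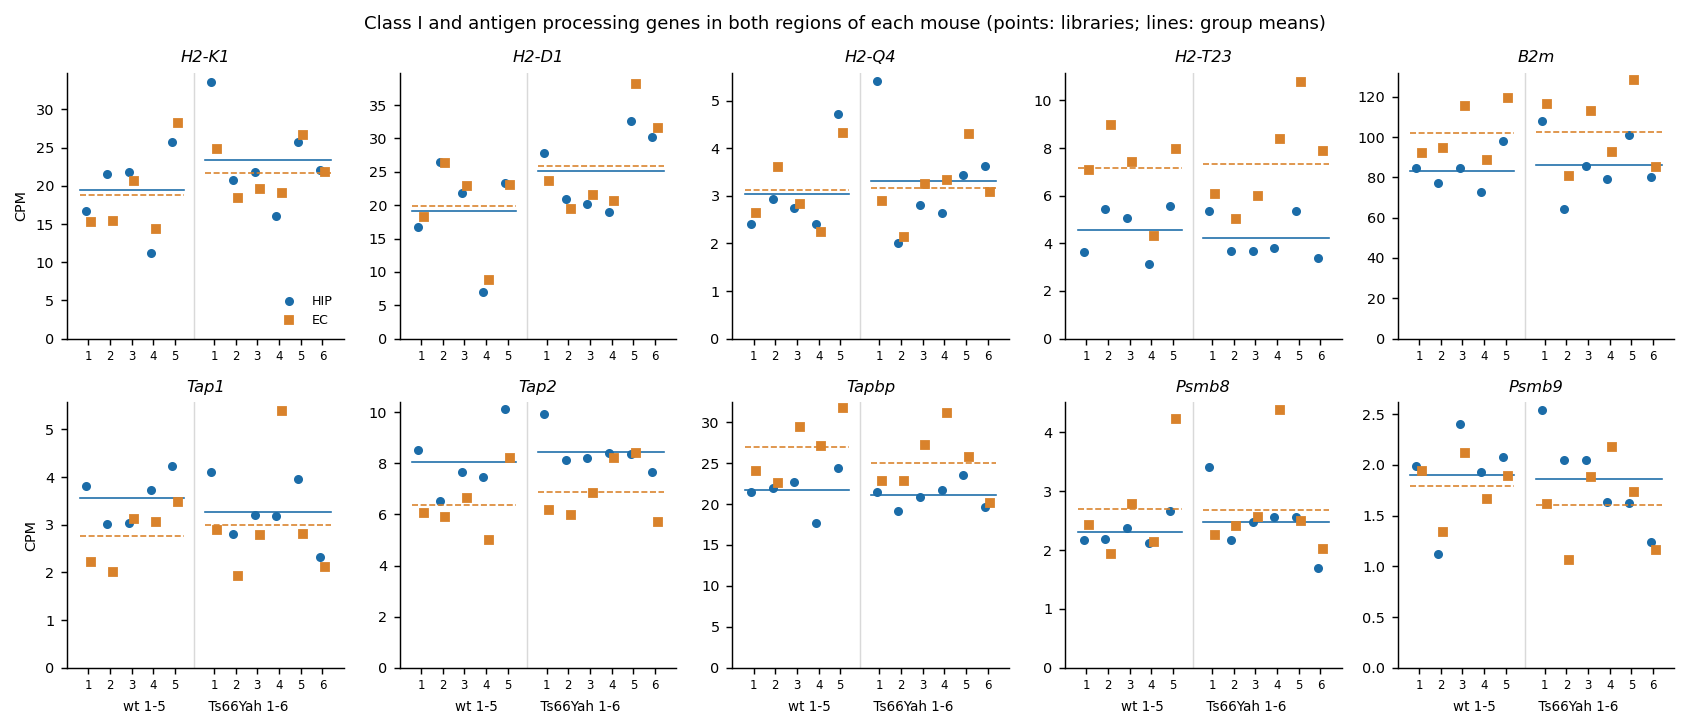
Levels of the 10 genes (y axis, CPM) in each mouse (x axis, wt mice 1 to 5 and Ts66Yah mice 1 to 6), with HIP as circles and EC as squares, 1 point per library, and lines for the group means. For H2-D1 both points of a mouse nearly coincide, from 6.95 and 8.82 CPM in wt mouse 4 to 32.7 and 38.2 CPM in Ts66Yah mouse 5, whereas H2-T23, B2m and Tapbp are higher in EC in every mouse.

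The mean H2-D1 level of a mouse over both regions ran from 7.88 CPM (wt mouse 4) to 35.4 CPM (Ts66Yah mouse 5), a 4.496-fold range, with a median of 22.3 CPM. The SD of the mouse deviations from the group means, averaged over both regions, was 0.51 log2 units, against 0.10 for a single library within a mouse. For H2-K1 the mouse means ran from 12.8 (wt mouse 4) to 29.2 CPM (Ts66Yah mouse 1), 2.29-fold, with SDs of 0.32 between and 0.17 within mice. B2m varied less, from 72.4 (Ts66Yah mouse 2) to 115 CPM (Ts66Yah mouse 5), 1.58-fold, but the regions of a mouse differed by even less once the group means were removed (0.21 between, 0.08 within). At the other end, both SDs were nearly equal for Tap1 (0.28 and 0.27), Tapbp (0.14 and 0.13) and Psmb8 (0.26 and 0.24). The first SD is that of means of 2 libraries and the second that of 1 library, so that equal values do not mean equal spread.

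B2m itself was counted in wt HIP at 84.4, 77.3, 84.6, 72.8 and 97.8 CPM and in Ts66Yah HIP at 108, 64.1, 85.9, 79.4, 101 and 80.0 CPM. In EC the wt mice had 91.9, 94.6, 115, 88.7 and 119 CPM and the Ts66Yah mice 116, 80.8, 113, 92.5, 128 and 85.1 CPM. Ts66Yah mouse 2 was the lowest of all mice in both regions, and wt mouse 5 and Ts66Yah mice 1 and 5 were the 3 highest in both. The order was not that of H2-D1: Ts66Yah mouse 6, second highest for H2-D1, was among the lower mice for B2m.

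The agreement of the regions was also looked at without a count model, as the correlation over the 11 mice between the HIP and the EC deviation of log2 CPM from the group mean, with an exact two-sided permutation of the mice within genotype (86400 arrangements; adjusted over 17232 genes). H2-D1 had r = 0.96 and rho = 0.90 (exact p = 9.26e-05, adjusted 0.0326; for rho exact p = 0.000162, adjusted 0.0608), and r = 0.91 without the mice farthest from the median HIP deviation, wt mouse 4 and Ts66Yah mouse 4. B2m had r = 0.86 and rho = 0.84 (exact p = 0.00144 and 0.00565, adjusted 0.0723 and 0.165), and r = 0.86 without Ts66Yah mice 1 and 2. H2-K1 had r = 0.75 and rho = 0.76 (exact p = 0.0171 and 0.0148, adjusted 0.200 and 0.228), and r = 0.73 without wt mouse 4 and Ts66Yah mouse 1. By adjusted p of r, 1 of the 10 genes passed, against 0.963% of all genes, and for rho none did. The call of H2-D1 was lost whichever mouse was left out (lowest adjusted p = 0.0520, exact permutation). With fewer mice fewer arrangements exist and the smallest p that can be reached is larger. The loss therefore does not show whether H2-D1 depends on 1 mouse. The other 7 genes had r between 0.39 and 0.61, with adjusted p of r from 0.348 to 0.632 (exact permutation), against a median r of 0.30 over all genes.

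**Figure D3:**
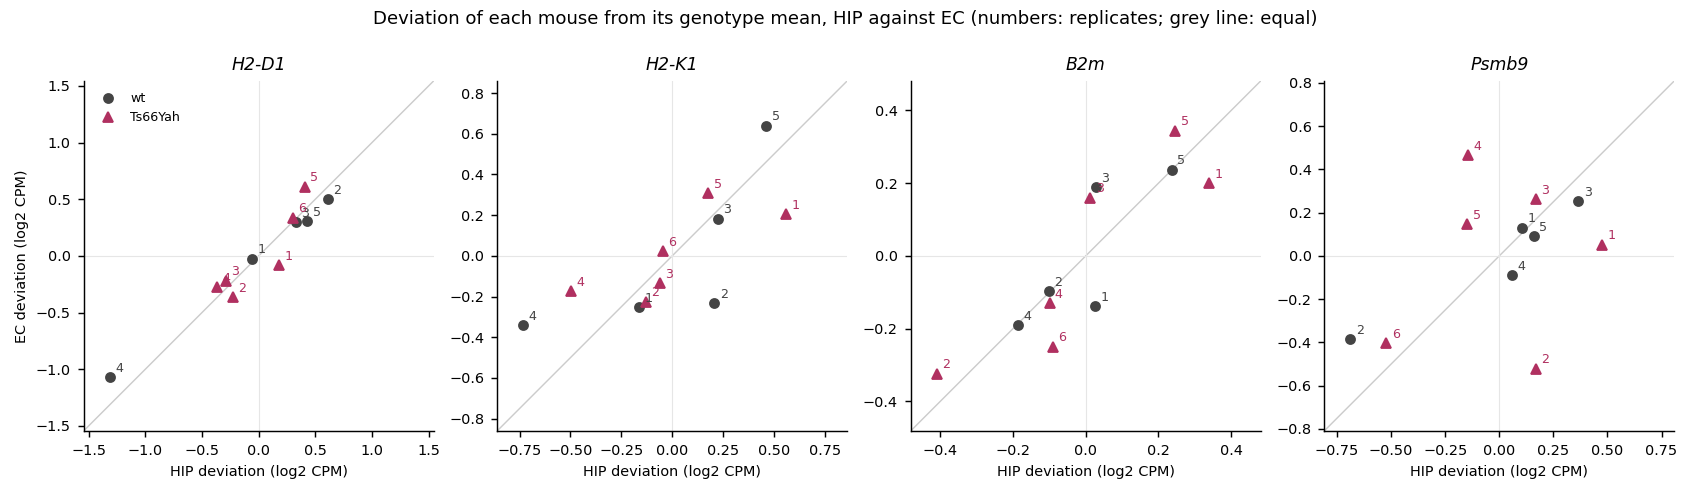
Deviation of each mouse from the mean of its genotype in HIP (x axis) against that in EC (y axis), both in log2 CPM, for H2-D1, H2-K1, B2m and Psmb9, with wt mice as circles, Ts66Yah mice as triangles and the replicate number beside each point. H2-D1 (r = 0.96) and B2m (r = 0.86) follow the line of equal deviation, H2-K1 (r = 0.75) less closely, and Psmb9 (r = 0.43) scatters.

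Dropping wt mouse 4, the mouse with the lowest heavy chain levels, left H2-D1 past the threshold of the test of mice (adjusted p = 0.000307, edgeR), and B2m and H2-K1 passed as well. The call of H2-K1 was lost without wt mouse 5 (adjusted p = 0.0526). H2-T23 passed without Ts66Yah mouse 1 (adjusted p = 0.0215) or mouse 6 (0.0496), and H2-Q4 without Ts66Yah mouse 1 (adjusted p = 0.0194). The sum of the 23 class I genes also differed between mice of a genotype (F = 13.8, adjusted p = 0.000867, edgeR; 0.0144 without wt mouse 4), as did that of the 4 heavy chains of the list alone (F = 17.2, adjusted p = 0.000268).

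In HIP, wt mouse 4 also stood low for several markers of other tissue. In its HIP library the 7 choroid plexus markers summed to 114 CPM, against 778 to 3360 CPM in the other 10 HIP libraries, and in EC to 11.2 CPM, against 11.3 to 43.3 CPM. Its HIP library was also the lowest for meningeal markers (46.2 CPM, others 53.7 to 157), class II genes (16.3 CPM, others 19.7 to 33.0) and interferon-stimulated genes (240 CPM, others 285 to 400). In EC its meningeal markers (134 CPM) were among the higher values. Its class II genes stood there at 25.2 CPM (others 24.9 to 46.0), and its interferon-stimulated genes at 303 CPM (others 299 to 548). Of the 7 choroid plexus markers 4 passed the test of mice, as did 1 of 7 meningeal markers, against 6.83% of the 19074 genes tested. Their part in the differences between mice was not tested.

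Other genes of the neighbourhood were read from the same test. Between the first and the last annotated H2 gene of chromosome 17 (33974659 to 37483552), 13 of 126 tested genes differed between mice of a genotype (10.3%), and without the members 11 of 118 (9.32%). On the whole chromosome 79 of 916 did (8.62%). By distance from the start of H2-K1, the share before it was 9 of 80 genes (11.2%) beyond 20 Mb, 6 of 93 (6.45%) from 20 to 10 Mb, 19 of 157 (12.1%) from 10 to 5 Mb and 15 of 103 (14.6%, H2-K1 included) within 5 Mb. After it the share was 11 of 125 (8.8%) within 5 Mb, 1 of 20 (5%) from 5 to 10 Mb, 9 of 103 (8.74%) from 10 to 20 Mb and 9 of 235 (3.83%) beyond 20 Mb. Shares above that of the MHC region (10.3%) occurred before H2-K1 within 5 Mb, from 10 to 5 Mb and beyond 20 Mb. The stretches were not tested against each other.

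**Figure D4:**
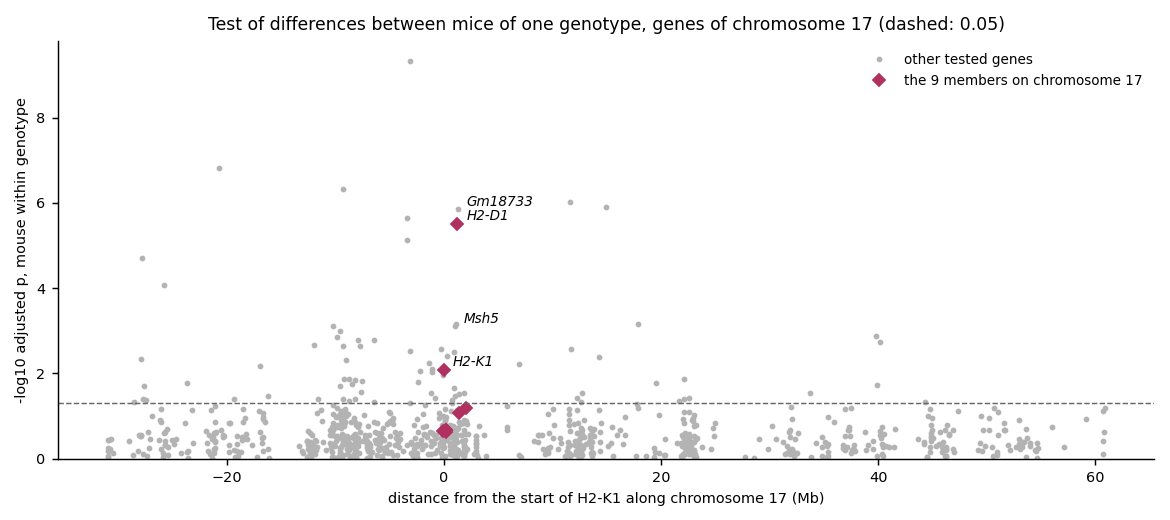
Test of differences between mice of 1 genotype for the 916 tested genes of chromosome 17: -log10 of the adjusted p (y axis, edgeR) against the distance of the gene from the start of H2-K1 (x axis, Mb), with the 9 members of the chromosome as diamonds, other genes as dots and the threshold of 0.05 dashed. H2-D1 and H2-K1 lie above the line with Gm18733 and Msh5, and other genes past the threshold lie along much of the chromosome.

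Several genes near the heavy chains separated the mice in both regions. H2-Ea-ps, the alpha chain of the class II molecule I-E, is known to be silent in the b haplotype because of a promoter deletion and to be transcribed in the k haplotype. It was not counted (0 reads) in either region of wt mouse 2 and of Ts66Yah mice 5 and 6, where a floor of 3 reads corresponds to 0.0718 to 0.104 CPM. In the other 8 mice it lay between 0.113 (3 reads, wt mouse 4) and 0.954 CPM in HIP and between 0.529 and 1.71 CPM in EC (test of mice, adjusted p = 0.00391, edgeR). In terms of H2-D1, wt mouse 2 was the highest of the wt mice and Ts66Yah mice 5 and 6 the highest of the Ts66Yah mice, in both regions. The haplotype of the mice is not given in the labels, and the relation was not tested.

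Gm18733, a transcribed unprocessed pseudogene next to H2-D1 (35278176 to 35279414, minus strand), had the opposite extremes. In HIP it stood at 1.68, 0.0245, 1.86, 3.66 and 1.57 CPM in wt mice 1 to 5 and at 1.93, 1.98, 1.70, 1.66, 0.0843 and 0.0479 CPM in Ts66Yah mice 1 to 6. The EC values were 1.046, 0.0597, 1.86, 2.99 and 1.65 CPM in wt and 1.36, 1.53, 1.08, 1.86, 0.104 and 0.137 CPM in Ts66Yah mice. Thus wt mouse 4, lowest for H2-D1, was highest for Gm18733, and the 3 mice without H2-Ea-ps reads had at most 4 reads of Gm18733 in a library (test of mice, adjusted p = 1.41e-06, edgeR). Of its 50-base stretches 2.46% occur elsewhere, all in Vps52 and none in H2-D1.

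Msh5, a meiotic mismatch repair gene (35028605 to 35046745), was lowest in the same 3 mice in both regions (adjusted p = 0.000787, edgeR). In HIP it had 0.343 (wt mouse 2), 0.169 and 0.144 CPM (Ts66Yah mice 5 and 6), from 14, 6 and 6 reads. The other 8 mice had 0.640 to 1.62 CPM there. In EC the same 3 mice had 4, 2 and 2 reads, near the floor of 3 reads, and the other 8 had 14 to 25 reads. CR974462.6, a long noncoding RNA next to H2-K1 (33981494 to 33982777), had 0 and 1 read in the HIP and EC of wt mouse 4 and its highest HIP levels in Ts66Yah mice 5 (1.57 CPM) and 6 (1.32 CPM) (adjusted p = 0.0108). The heat shock genes Hspa1b (adjusted p = 0.00314) and Hspa1a (adjusted p = 0.0219) differed between mice as well, with a different order, Hspa1b being lowest in Ts66Yah mouse 2 in HIP and in wt mouse 1 in EC. All reads were mapped to the reference genome, which is that of C57BL/6J, so that a lower level of an allele and fewer mapped reads of an allele that departs from the reference cannot be told apart in these counts.

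**Figure D5:**
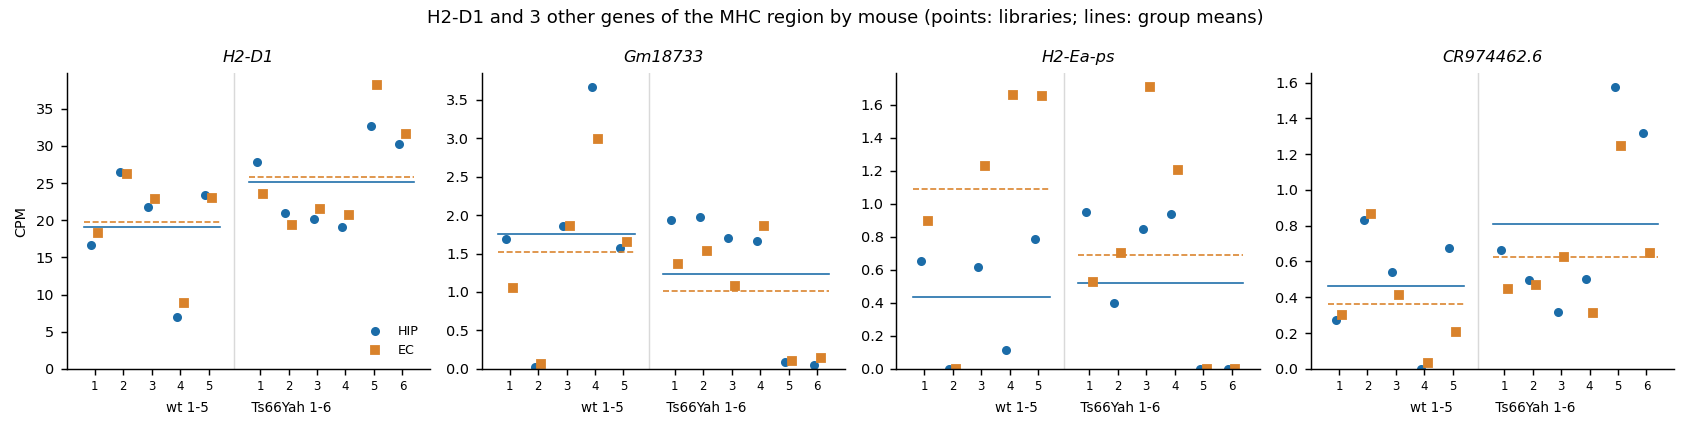
Levels (y axis, CPM) of H2-D1, Gm18733, H2-Ea-ps and CR974462.6 in each mouse (x axis), with HIP as circles, EC as squares, 1 point per library, and lines for the group means. In wt mouse 2 and Ts66Yah mice 5 and 6 H2-Ea-ps is at 0 and Gm18733 at or below 0.137 CPM, and wt mouse 4 has the lowest H2-D1 and the highest Gm18733.

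Among the 15 tested genes of the other class I and class I-like genes, H2-Q6 differed between mice (adjusted p = 0.0306, edgeR), and no other did. Its HIP level ran from 0.0755 (wt mouse 4) to 1.96 CPM (Ts66Yah mouse 1), and 35.0% of its 50-base stretches are shared, mostly with H2-Q7 and H2-Q4. Of the 16 other antigen processing and loading genes, 3 differed between mice: the constitutive proteasome subunit Psmb5 (adjusted p = 0.00923), the chaperone Hspa5 (0.0288) and the class I chaperone Calr (0.0452). Over all 19074 genes tested, 6.83% differed between mice. None of the tested genes of both lists passed for genotype in HIP, in EC or in the summed counts.

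Of the class I regulators, 1 of 14 passed for genotype, in HIP and in the summed counts. Over all genes tested 0.591% passed in HIP, 0.283% in EC and 0.573% in the sum. Rfx5, a subunit of the factor that binds the X box of class I and class II promoters, was counted in HIP between 13.7 and 14.7 CPM in wt and between 9.22 and 11.2 CPM in Ts66Yah mice, and in EC between 10.8 and 13.5 and between 7.33 and 10.6 CPM. The genotypes did not overlap in either region, which held for 1.94% of all genes tested in HIP and 0.9% in EC. Its log2 fold change was -0.47 ± 0.06 in HIP (adjusted p = 0.00160, edgeR) and -0.48 ± 0.11 in EC (adjusted p = 0.140), and it passed in the summed counts (adjusted p = 0.00246). It is named because it passed, after its values were seen. It did not pass the test of mice (adjusted p = 0.583, edgeR). Nlrc5, the transactivator of class I genes, had log2 fold changes of 0.30 ± 0.27 and 0.75 ± 0.35 and did not pass (adjusted p = 0.717 and 0.797).

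The interferon receptors of the extra segment rose, 4 of 4 in HIP and 3 of 4 in EC, with log2 fold changes between 0.50 and 0.72 in both regions (Il10rb in EC, 0.50 ± 0.13, adjusted p = 0.248, edgeR, is the exception). Ifngr2, a chain of the interferon gamma receptor, rose by 0.67 ± 0.05 in HIP and 0.72 ± 0.08 in EC. None of the 30 interferon-stimulated genes listed off the MHC passed in either region, but 27 of 30 had positive log2 fold changes in HIP (median 0.23) and 29 of 30 in EC (median 0.39), against medians of 0.00 over all genes tested. In EC this rested largely on Ts66Yah mouse 4: without its library 21 of 30 were positive, with a median of 0.08.

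In that library the listed interferon-stimulated genes summed to 548 CPM, while the other EC libraries had between 299 and 417 CPM. Ifit3 stood there at 23.6 CPM, against 4.40 to 7.76 CPM in the other EC libraries. The same library had the highest EC levels of Tap1 (5.39 CPM, next 3.49), Psmb8 (4.37 CPM, next 4.22 in wt mouse 5) and Psmb9 (2.173 CPM, next 2.12). The classical heavy chains and B2m were not raised there: H2-D1 stood at 20.7, H2-K1 at 19.1 and B2m at 92.5 CPM, each below the mean of its group. H2-Q4 stood at 3.32 CPM, below only Ts66Yah mouse 5 (4.29 CPM) in that group. H2-T23 (8.38 CPM) and Tap2 (8.22 CPM) were likewise below only Ts66Yah mouse 5 (10.8 and 8.40 CPM). Tapbp, at 31.1 CPM, was the highest of that group (next 27.2 CPM), with wt mouse 5 at 31.7 CPM in EC. The raised members were thus not the loading genes and immunoproteasome subunits alone. In HIP Ts66Yah mouse 4 had 347 CPM of the listed genes, within the range of the other libraries (240 to 400), and 3.19 CPM of Tap1.

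Across the 22 libraries, the deviations from the group means were correlated between the 10 genes. Among the heavy chains and B2m, Pearson's r of the 10 pairs lay between 0.47 and 0.82 (median 0.71). Among the transporter, tapasin and immunoproteasome genes it lay between 0.47 and 0.81 (median 0.65), and between both sets between -0.15 and 0.66 (median 0.39 over 25 pairs). The ranges within and between the sets overlap, and their difference was not tested. The lowest values were those of H2-D1 with Psmb9 and with Tap1. These points share mice, libraries and depth, and the values describe these libraries.

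The genes most like B2m over the 22 libraries were Nfkb2 (r = 0.81), Zfas1 (0.80), Acacb (0.77), Ctso (0.76) and Ccdc102a (0.76). Those most like H2-K1 were H2-Q6 (0.87), Tob2 (0.85), Cdkn1c (0.80), Pdgfa (0.80) and Rtkn2 (0.80). For H2-D1, looked up after its values had been seen, they were CR974462.6 (0.94), Cyp4f15 (0.90), Sox8 (0.89), Cyp4f14 (0.88) and Usp36 (0.86), of which all but Usp36 lie on chromosome 17.

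The regions were compared within mice. Of the 10 genes 4 differed between EC and HIP (edgeR quasi-likelihood test with the mouse as a block), against 68.4% of 19074 genes: 3 were higher in EC, where 33.4% of all genes were higher, and 1 was lower, where 35% were. H2-T23 was higher in EC by 0.73 ± 0.09 log2 units (adjusted p = 2.4e-06), from 4.38 CPM over all HIP libraries to 7.26 CPM over all EC libraries and in 11 of 11 mice. B2m was higher by 0.28 ± 0.04 (adjusted p = 4.5e-06), from 85.0 to 102 CPM, and Tapbp by 0.28 ± 0.06 (adjusted p = 0.000284), from 21.3 to 25.9 CPM, each in 11 of 11 mice. Tap2 fell by 0.31 ± 0.07 (adjusted p = 0.000645), in 10 of 11 mice, and Tap1, lower in 9 of 11 mice, did not pass (-0.25 ± 0.12, adjusted p = 0.066). H2-D1 (0.06 ± 0.05) and H2-K1 (-0.06 ± 0.07) had intervals of the region difference from -0.04 to 0.16 and from -0.20 to 0.09.

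Markers of other cell types also differed between the regions, as did 68.4% of the 19074 genes tested (33.4% higher and 35% lower in EC). All 15 microglial markers were higher in EC, their sum ranging from 401 to 549 CPM in HIP and from 531 to 755 CPM in EC, as were 7 of 10 endothelial and all 7 border macrophage markers. All 5 blood genes were higher in EC too, and all 7 choroid plexus and all 6 oligodendrocyte markers lower (median log2 difference -5.03 and -2.09). Of the 6 astrocyte markers 3 were higher and 3 lower, and of the 3 lymphocyte markers tested 2 were higher (median 1.57). Their part in the region differences of the 10 genes was not tested, and in tissue RNA more cells of a type and more RNA per cell cannot be told apart. Between genotypes, all 15 microglial markers had negative log2 fold changes in both regions (median -0.13 in HIP and -0.14 in EC), of which Trem2, a microglial lipid receptor, passed in EC (-0.69 ± 0.13, adjusted p = 0.0444, edgeR). Between mice, 7 of the 15 microglial markers passed the test of mice, against 6.83% of the 19074 genes tested. In wt mouse 4 their sum was 510 CPM in HIP and 655 CPM in EC, the median of the wt mice in each region. The part of microglia in the differences between mice was not tested.

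The genotype difference of the 10 genes did not pass a test of change between the regions for any of them (edgeR interaction of genotype and region, smallest unadjusted p = 0.433). Over all 19074 genes 0 were called (0%), and 3.81% had an unadjusted p under 0.05. For H2-D1 the difference of the log2 fold changes was -0.07 ± 0.10, with an interval from -0.28 to 0.14.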

How the data were processed

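RNA of the HIP and EC of 11 mice was sequenced (single-end, 50 bases). Per the study's methods and the labels, the authors mapped reads to GRCm38 with Hisat2 and deposited whole-number read counts per gene from HTSeq. Strand setting, treatment of multiply mapped reads and the versions of Hisat2 and HTSeq are not given in the sources used here, and the sources differ on the library kit, which was not resolved. The authors' tables of fold changes and p-values were not used. Symbols and positions came from GENCODE M21, which matched 55144 of 55385 genes.

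Counts were tested with edgeR 4.0.16 (quasi-likelihood, TMM, filterByExpr; R 4.3.3), within each region for genotype, and over all 22 libraries for mouse, region and interaction. DESeq2 1.42.0 and limma 3.58.1 (voom) were alternatives. Adjusted p-values are Benjamini-Hochberg over all genes tested, at a threshold of 0.05. The edgeR tests of genotype set a difference against the spread between these mice. Those of mouse, region and interaction set it against the spread left within a mouse. Correlations of members used log2 CPM with a prior count of 2. Replicate libraries differed by more than sampling noise (chi-square per gene at least 9.62 over 50 pairs). Named outside the 10 members were, by rule, the MHC genes with the smallest p in the test of mice, the genes most like B2m and H2-K1, and list genes past the threshold. Any other gene was named after its values were seen. The members and lists were chosen with earlier results of these data known.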

Additional observations from a re-analysis of the deposited data

Results flagged for a closer look

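Of 40 groups of 5 or 6 libraries (10 genes in 4 groups), 4 held a library set apart from the others of its group by Dixon's criterion at 95%, which chance meets in about 1 in 20 groups. H2-Q4 stood at 4.71 CPM in the HIP of wt mouse 5, with the next library of the group at 2.94 CPM. Tap1 stood at 5.39 CPM and Psmb8 at 4.37 CPM in the EC of Ts66Yah mouse 4, with the next libraries of that group at 2.90 and 2.56 CPM. Tap2 stood at 9.93 CPM in the HIP of Ts66Yah mouse 1, next to 8.40 CPM.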

How the results depend on the processing

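The count of members called was 0 for genotype in HIP, in EC and in the summed counts, and for the interaction, under every alternative run, and 4 for region. In the test of mice it was 3, but 5 with the DESeq2 likelihood ratio test, 8 without a filter on low counts (where 5133 of 38162 genes were called), and between 2 and 5 when 1 mouse was left out. In the agreement of the regions it was 1, and between 0 and 0 with 1 mouse left out, where fewer arrangements exist (H2-D1, r from 0.91 to 0.98, lowest adjusted p 0.0520, exact permutation).

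Some genotype log2 fold changes near 0 turned sign. With limma voom in EC, B2m was at -0.00799 and Psmb8 at 0.00255. With the replicate block Psmb9 was at 0.0763 in HIP, and H2-T23 at -0.00113 and Psmb8 at 0.0627 in EC. Blocking on ranges of the animal numbers put H2-Q4 at -0.0118, B2m at -0.0139 and Tap1 at -0.0226 in EC. The region difference of H2-Q4 was -0.0158 without the mouse block and -0.0398 in Ts66Yah mice alone. With 1 mouse left out, HIP values ran from -0.0585 to 0.34 (H2-Q4), -0.0136 to 0.13 (B2m), -0.0962 to 0.0124 (Tapbp) and -0.18 to 0.0664 (Psmb9), and EC values from -0.10 to 0.15 (H2-Q4), -0.11 to 0.13 (H2-T23), -0.0736 to 0.0600 (B2m), -0.15 to 0.20 (Tap1) and -0.21 to 0.20 (Psmb8). The cause was not tested.

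Over all genes, DESeq2 called 369 in HIP and 109 in EC, against 109 and 50. The replicate block gave 58, 39 and 67 (HIP, EC and sum), the block of animal numbers 65 and 36, all 22 libraries fitted together 79 in EC, and voom with a random mouse effect 210 in the sum, against 116. Replicate numbers were not used to pair the mice in the main tests. Same-numbered libraries correlated at -0.01 to 0.06 in HIP and 0.02 to 0.18 in EC. In HIP 2 of 10 and in EC 5 of 10 libraries correlated best with their own number, each out of 5 candidates. The lowest members, near 2 CPM, and H2-Q4, with shared sequence, are the least certain.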
